A study of Mus musculus with 4 samples.

Results

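The genes described here were named as a list of 10 mouse collagen genes, the multiplexins *Col15a1* and *Col18a1*, the type IV genes *Col4a1* and *Col4a2*, *Col28a1*, and *Col1a1*, *Col1a2*, *Col3a1*, *Col5a1* and *Col6a1*. Of these, 9 were found by symbol among the 12693 genes of the deposited table, and *Col6a1* was not analysed here. The list was chosen from the differences in normalized counts between the genotypes in these same samples, so the values of its members are given as descriptions, and no test of theirs is used as support. The table held 25 of the 44 collagen genes of the GRCm38 annotation, and the 16 outside the list are compared with the 9.

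Collagens are secreted proteins whose chains wind into a helix in which every triplet of residues starts with glycine. In vessels, the network-forming type IV collagens build the sheet of the basement membrane on which endothelial cells (ECs) and pericytes sit. The multiplexins, type XV and type XVIII collagen, lie in or beside that sheet, and the C-terminal fragment of type XVIII collagen is endostatin. Fibrillar collagens of types I, III and V are known mainly as products of fibroblasts and other mesenchymal cells, and type XXVIII collagen, a chain with von Willebrand factor A domains, is known from basement membranes around peripheral glia.

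RNA-seq was performed on CD31-sorted cells from the cerebral cortex of C57BL/6 mouse embryos at embryonic day 18. There were 2 samples labelled WT (wild-type), which by the study's methods are littermates without the Cre transgene, and 2 with the genotype FOXQ1fl/fl;Tie2-Cre (*Foxq1* cKO), in which Cre removes the floxed *Foxq1*, a forkhead transcription factor gene. The Tie2 promoter drives Cre in ECs and is known to be active in blood cells too. The labels give the tissue as brain and do not say whether the samples of a group came from separate embryos or pools, so errors and p-values measure only the spread between these samples.

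The samples held between 15827166 and 21466436 reads on listed genes. *Foxq1* was at 353 and 297 normalized counts (reads divided by a size factor per sample) in wild-type against 5.44 and 32.6 in *Foxq1* cKO cells, a log2 difference of -4.47 ± 1.04 (SE). All 12 endothelial markers were listed, with summed normalized counts of 409725 and 376906 in wild-type against 327188 and 364135 in *Foxq1* cKO samples. Of the pericyte and smooth muscle markers 9 of 13 were listed, with sums of 155649 and 153696 in wild-type against 160912 and 146364 in *Foxq1* cKO samples. The cells passed a gate for an endothelial surface protein, and transcripts of pericytes were nevertheless abundant: *Rgs5*, a pericyte gene, ranged from 89164 to 93044 normalized counts. Differences below are given on the scale of log2(normalized count + 1), *Foxq1* cKO minus wild-type, with the standard error from limma. The median standard error over the 12472 genes with a mean of at least 10 was 0.496.

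The repeat that defines the family can be read from the coding sequences, and 4 stretches are shown because they set the interrupted chains beside an uninterrupted one. Each line gives the first 45 bases of the longest run of glycine triplets in the longest coding transcript of the GENCODE M21 annotation of GRCm38, 5′ to 3′ on the coding strand, with the GGN glycine codon that opens each triplet in capitals. The stretches are exonic coding sequence.
*Col15a1*: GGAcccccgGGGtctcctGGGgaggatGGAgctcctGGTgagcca
*Col18a1*: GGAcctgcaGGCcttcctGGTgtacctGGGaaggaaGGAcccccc
*Col4a1*: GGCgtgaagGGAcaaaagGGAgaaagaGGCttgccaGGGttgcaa
*Col3a1*: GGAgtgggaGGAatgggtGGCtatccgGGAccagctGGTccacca
In the fibrillar members this run was long and nearly unbroken, with 338 triplets in *Col1a1*, 339 in *Col1a2*, 344 in *Col3a1* and 338 in *Col5a1*, and the coding sequence held 2 or 3 runs of at least 5 triplets. In the 2 type IV members the longest runs were 40 triplets in *Col4a1* and 66 in *Col4a2*, among 16 and 22 runs. The multiplexins and *Col28a1* had short runs: the longest had 30 triplets in *Col15a1*, 30 in *Col18a1* and 28 in *Col28a1*, among 10, 13 and 9 runs. Codons in such runs made up 23.9% of the coding sequence of *Col15a1*, 27.9% of *Col18a1* and 28.7% of *Col28a1*, against 58.8% to 77.2% in the other 6 members.

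Both multiplexins were higher in the *Foxq1* cKO samples. *Col15a1* (ENSMUSG00000028339, plus strand of chromosome 4, 47208161 to 47313167) encodes the chain of type XV collagen. It was at 39.6 and 12 normalized counts in wild-type against 732 and 990 in *Foxq1* cKO cells. Nearly all of its signal was in the *Foxq1* cKO samples, and the lowest of these was 18.5 times the highest wild-type sample. The means were 25.8 ± 19.5 and 861 ± 183 (SD, n = 2 each), a log2 difference of 5.21 ± 0.81 (SE), which ranked 5 from the top among the 12472 genes. The wild-type values rest on 47 and 12 reads against 672 and 973, and the summed reads adjusted for size factors gave a ratio of 32.1 with a 95% counting interval of 24.8 to 42.4. That interval pools the reads of both samples of a group, so it leaves out the spread between samples. It also does not allow for the choice of the gene by this same difference, so it is a description only. The reads carry no molecular identifiers, so copies of the same molecule count as separate reads. Fits without each of the 4 samples gave log2 differences between 4.39 and 6.04.

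*Col18a1* (ENSMUSG00000001435, minus strand of chromosome 10, 77052178 to 77166548) encodes the chain of type XVIII collagen that carries endostatin. It was at 9173 and 11488 normalized counts in wild-type against 25208 and 35584 in *Foxq1* cKO cells. The groups did not overlap, and the lowest *Foxq1* cKO sample was 2.19 times the highest wild-type sample. The means were 10330 ± 1637 and 30396 ± 7337 (SD, n = 2 each), which differed by 2.94 times, and the log2 difference was 1.54 ± 0.20 (SE). Leaving out each sample in turn gave 1.30 to 1.79. With exons of 6349 bp in *Col15a1* and 7021 bp in *Col18a1*, *Col15a1* made up 0.430% and 0.104% of the summed counts of the 2 multiplexins in wild-type against 2.82% and 2.71% in *Foxq1* cKO samples.

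*Col28a1* was lower in *Foxq1* cKO cells. This gene (ENSMUSG00000068794, minus strand of chromosome 6, 7997808 to 8192617) was at 175 and 193 normalized counts in wild-type against 4.35 and 3.05 in *Foxq1* cKO cells. It was low in both wild-type samples, at a mean of 37.6 normalized counts per kb of exon against a median of 104 over the genes with an annotated length, and close to the lowest value that the table can hold in both *Foxq1* cKO samples. The reads were 208 and 194 against 4 and 3. The log2 difference of -5.31 ± 0.93 (SE) was the lowest of the 12472 genes, and the *Foxq1* cKO mean was 2.01% of the wild-type mean. Adjusted for size factors, the wild-type to *Foxq1* cKO ratio of the summed reads was 49.9, with a 95% counting interval of 24.0 to 125. This interval has the same limits as that of *Col15a1*. Leaving out each sample in turn gave -5.51 to -5.11, and the fitted value depends on the pseudocount, at -4.45 with a pseudocount of 5. *Col28a1* passed the minimum mean of 10 only through its wild-type samples.

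The 2 type IV genes, which encode the chains that join into the main network of vascular basement membranes, differed little between the genotypes. *Col4a1* (ENSMUSG00000031502, minus strand of chromosome 8, 11198423 to 11312826) was at 67506 and 63263 normalized counts in wild-type against 67348 and 72753 in *Foxq1* cKO cells. The groups overlapped, and the log2 difference was 0.10 ± 0.09 (SE). *Col4a2* (ENSMUSG00000031503, plus strand of chromosome 8, 11312805 to 11449287) was at 42715 and 37437 in wild-type against 45367 and 46436 in *Foxq1* cKO cells. Its *Foxq1* cKO samples both lay above the wild-type samples, by 1.06 times at the nearest, and the log2 difference was 0.20 ± 0.10 (SE).

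The type IV pair is transcribed in opposite directions from a shared start region, and the annotated first exons overlap by 22 bp. The overlap is shown because reads from it cannot be assigned to either gene without strand information, and whether the library kept strand is not given in the sources used here. On the plus strand of GRCm38 it lies at chr8:11312805-11312826.
*Col4a1* and *Col4a2* overlap: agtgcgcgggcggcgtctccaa
The ratio of *Col4a1* to *Col4a2* normalized counts was 1.58 and 1.69 in wild-type against 1.48 and 1.57 in *Foxq1* cKO samples, with means of 1.64 ± 0.08 and 1.53 ± 0.06 (SD, n = 2 each). Per kilobase of exon the ratio was 1.40 and 1.5 against 1.32 and 1.39. The 4 ratios lay within a narrow range, with the *Foxq1* cKO samples lower.

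Among the fibrillar genes, *Col1a1* and *Col5a1* differed more than 2 times between samples of the same genotype. *Col1a1* (ENSMUSG00000001506, plus strand of chromosome 11, 94936224 to 94953042), which encodes the α1 chain of type I collagen, was at 319 and 1645 normalized counts in wild-type against 756 and 244 in *Foxq1* cKO cells. The wild-type samples alone differed by 5.16 times. The log2 difference was -0.75 ± 0.90 (SE), and it lay between -1.93 and 0.43 when samples were left out in turn. *Col1a2* (ENSMUSG00000029661, plus strand of chromosome 6, 4504814 to 4541544), the partner chain of the same fibril, was at 2057 and 2950 in wild-type against 3404 and 1895 in *Foxq1* cKO cells. Its groups overlapped too, with a log2 difference of 0.04 ± 0.34 (SE), which lay between -0.38 and 0.47 when samples were left out. Per kilobase, the ratio of *Col1a2* to *Col1a1* was 3.41 and 0.95 in wild-type against 2.38 and 4.10 in *Foxq1* cKO samples. In normalized counts it was 6.46 and 1.79 against 4.51 and 7.76, so its size depends on the exon lengths used. On either scale the 2 chains did not keep a fixed proportion across the samples.

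*Col3a1* (ENSMUSG00000026043, plus strand of chromosome 1, 45311538 to 45349706), whose chain forms type III fibrils by itself, was the most abundant fibrillar member per kilobase. It was at 6291 and 5132 normalized counts in wild-type against 5173 and 3486 in *Foxq1* cKO cells. The groups overlapped, and the log2 difference was -0.42 ± 0.24 (SE). *Col5a1* (ENSMUSG00000026837, plus strand of chromosome 2, 27886425 to 28039514), whose chain takes part in the nucleation of type I fibrils, was at 214 and 587 in wild-type against 75.1 and 177 in *Foxq1* cKO cells. Both *Foxq1* cKO samples were below both wild-type samples, by 1.21 times at the nearest, and the log2 difference was -1.61 ± 0.79 (SE). Its value lay between -2.34 and -0.89 when samples were left out. The annotation places exons of 2 non-coding genes over 99 and 113 bp of *Col5a1* exons on the opposite strand. Non-coding genes outside the table also overlap exons of *Col15a1* (14 bp), *Col4a2* (43 bp) and *Col3a1* (141 bp).

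**Figure D1:**
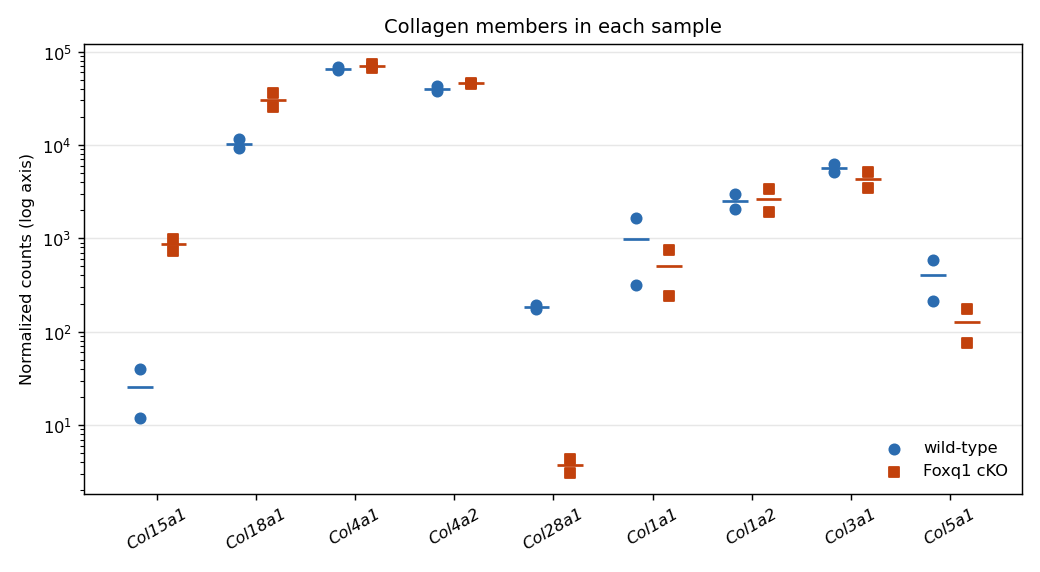
Normalized counts of the 9 collagen genes on a log axis, with wild-type samples as blue circles, *Foxq1* cKO samples as orange squares and bars at the means of 2 samples. *Col15a1* and *Col18a1* sit higher and *Col28a1* lower in both *Foxq1* cKO samples, *Col4a1* and *Col4a2* each lie close together over the 4 samples, and *Col1a1* spreads from 319 to 1645 within wild-type.

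Of the 9 members, 5 differences were positive and 4 negative, with a median of 0.04 against 0.01 over all genes. The *Foxq1* cKO samples were both higher for *Col15a1*, *Col18a1* and *Col4a2* and both lower for *Col28a1* and *Col5a1*, and the groups overlapped for the other 4 members. Over the 12472 genes, 18% had both *Foxq1* cKO samples above both wild-type samples and 18% had both below. At an unadjusted p under 0.05 in limma, 651 genes or 5.22% were called, 271 higher and 380 lower, and *Col15a1*, *Col18a1* and *Col28a1* were among them. Because the members were chosen for this contrast, nothing is read from that count. Adjusted p-values under 0.05 were absent in limma and in edgeR's quasi-likelihood test on the recovered reads, and the smallest adjusted p in limma was 0.857, while DESeq2 called 59 genes, 31 of them higher. The median over the members was -0.22 without wild-type 1 and -0.38 without *Foxq1* cKO 1.

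**Figure D2:**
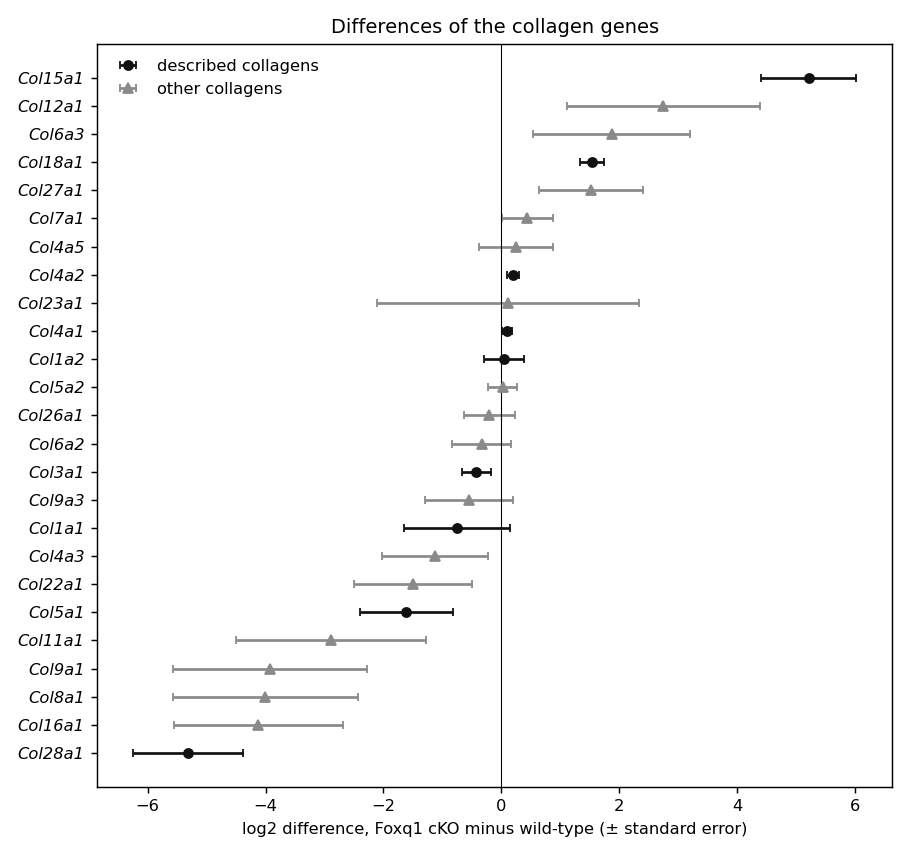
Log2 differences (*Foxq1* cKO minus wild-type, with 1 standard error on each side) of the 25 collagen genes in the table, with the 9 described genes as black circles and the 16 others as grey triangles. *Col15a1* at 5.21 and *Col28a1* at -5.31 stand at the ends, and *Col4a1*, *Col4a2* and *Col18a1* have the shortest error bars.

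Levels between genes were compared per kilobase of annotated exon. This length is the union of all annotated exons, so levels of different genes depend on it. It was 12426 bp for *Col1a2* and 6563 bp for *Col1a1*, whose longest coding sequences have 4116 and 4359 bp. In wild-type cells *Col4a1* was highest, at a mean of 8760 normalized counts per kb, ranked 49 among all genes, followed by *Col4a2* at 6055, ranked 79. *Col18a1* came next at 1471, then *Col3a1* at 582, *Col1a2* at 201, *Col1a1* at 150, *Col5a1* at 47.2, *Col28a1* at 37.6 and *Col15a1* at 4.06. The steps from *Col4a1* down to *Col1a2* exceeded the spread between the wild-type samples. The neighbours *Col1a2* and *Col1a1* overlapped, as did *Col1a1* and *Col5a1*, and *Col5a1* and *Col28a1*, whereas *Col15a1* lay below *Col28a1* in both samples.

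In *Foxq1* cKO cells the top 3 kept their order, with *Col4a1* at 9023 and 9747 normalized counts per kb, *Col4a2* at 6854 and 7016, and *Col18a1* at 3590 and 5068. *Col15a1* left the last place among the members, at 115 and 156 per kb, in the range of *Col1a1* at 115 and 37.2 and *Col1a2* at 274 and 153. *Col28a1* took the last place among the members, at 0.89 and 0.62 per kb.

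**Figure D3:**
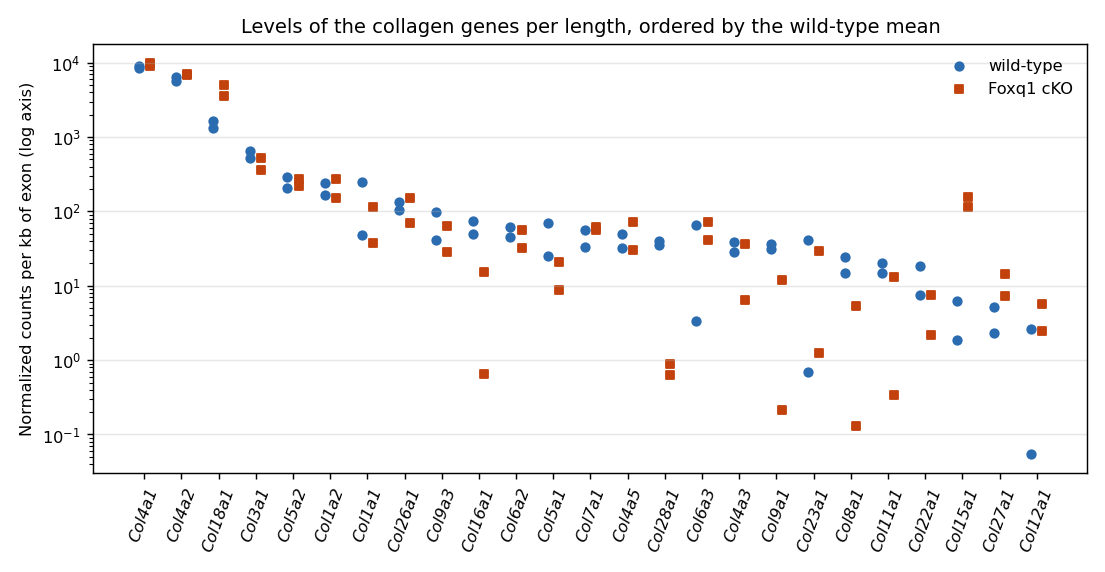
Normalized counts per kilobase of exon (log axis) for the 25 collagen genes in each sample, ordered by the wild-type mean, with wild-type samples in blue and *Foxq1* cKO samples in orange. *Col4a1*, *Col4a2* and *Col18a1* stand above the rest in all 4 samples. Among the members, *Col15a1* was last in wild-type and moved up in *Foxq1* cKO samples, where *Col28a1* was last.

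As a share of all collagen counts (not per length), the type IV pair made up 81.7% and 77.5% in wild-type against 73.1% and 71.0% in *Foxq1* cKO samples. The summed normalized counts of the pair were not lower, at 110221 and 100701 in wild-type against 112716 and 119189 in *Foxq1* cKO samples. The multiplexins made up 6.83% and 8.85% in wild-type against 16.8% and 21.8% in *Foxq1* cKO samples, nearly all of it *Col18a1*. The 4 fibrillar members together held 6.58% and 7.94% against 6.10% and 3.46%, so 1 *Foxq1* cKO sample lay close to the wild-type samples and the other lay lower. All 25 collagens together took 0.746% and 0.728% of all normalized counts in wild-type against 0.894% and 0.973% in *Foxq1* cKO samples.

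**Figure D4:**
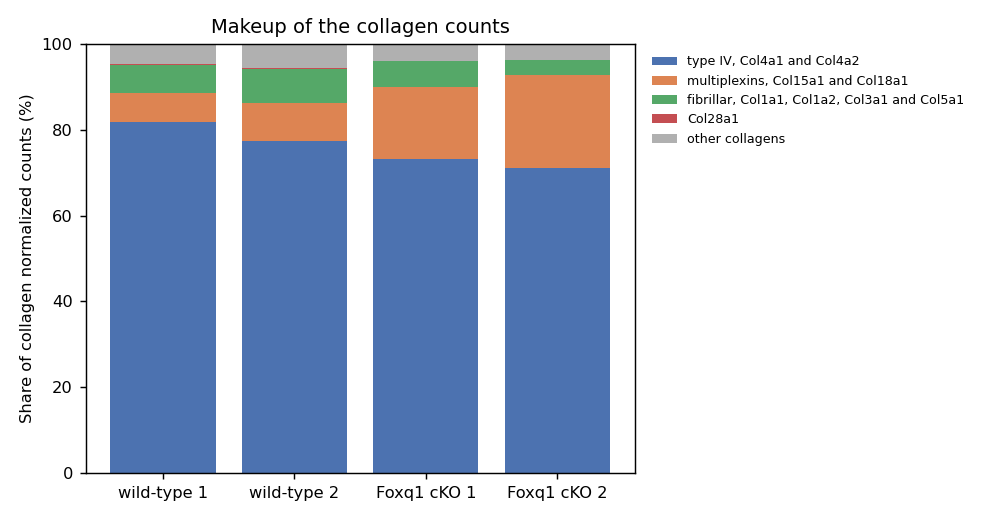
Stacked bars of the share of collagen normalized counts (%) held by each class of collagen gene in each of the 4 samples. The orange multiplexin part goes from 6.83% and 8.85% in wild-type to 16.8% and 21.8% in *Foxq1* cKO samples, while the blue type IV part goes from 81.7% and 77.5% to 73.1% and 71.0%. These are shares, and the summed type IV counts were 110221 and 100701 in wild-type against 112716 and 119189 in *Foxq1* cKO samples.

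The 16 other collagens held 2 genes with an unadjusted p under 0.05 in limma, both lower in *Foxq1* cKO cells, beside the 5.22% of all genes. In limma, the adjusted p was 0.857 for each of these and for each gene of the other lists called below. *Col16a1*, a collagen that binds along other fibrils, was at 498 and 339 normalized counts in wild-type against 4.35 and 104 in *Foxq1* cKO cells, a log2 difference of -4.12 ± 1.43 (SE, unadjusted p = 0.028). *Col8a1*, a short network-forming chain known from vessel walls, was at 194 and 115 against 42.5 and 1.02, a log2 difference of -4.00 ± 1.57 (SE, unadjusted p = 0.043). In both genes 1 *Foxq1* cKO sample was near 0 and the other was not, and it was not the same sample. The call for *Col16a1* was lost without wild-type 1 (unadjusted p = 0.070), and that for *Col8a1* without wild-type 1 (unadjusted p = 0.110), wild-type 2 (unadjusted p = 0.061) or *Foxq1* cKO 2 (unadjusted p = 0.152). Neither gene was called without a trend in eBayes or in edgeR, and *Col8a1* was not called in DESeq2 or with a minimum mean of 50. The *Col16a1* difference was -1.98 without *Foxq1* cKO 1 and -6.27 without *Foxq1* cKO 2, and the *Col8a1* difference -1.79 without *Foxq1* cKO 2 and -6.22 without *Foxq1* cKO 1.

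The rest of the 16 did not pass that threshold, with 7 of the 16 differences positive, 9 negative and a median of -0.27. Both *Foxq1* cKO samples were higher for 1 gene and lower for 5, beside 18% of all genes in each direction. *Col5a2*, the partner chain of *Col5a1*, was at 1973 and 2759 normalized counts in wild-type against 2633 and 2130 in *Foxq1* cKO cells, a log2 difference of 0.02 ± 0.25 (SE). The 2 type V chains thus had differences of 0.02 and -1.61, the second with the larger error. The minor type IV genes behaved unevenly, with *Col4a5* at 330 and 217 against 206 and 490 and *Col4a3* at 284 and 389 against 358 and 64.1. Of the type VI genes, *Col6a2* was at 514 and 381 against 465 and 266, and *Col6a3* was at 39.6 and 782 against 496 and 855, where wild-type 1 stood apart from the other 3 samples.

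Of the remaining collagens, *Col26a1* was at 1098 and 864 normalized counts in wild-type against 576 and 1246 in *Foxq1* cKO cells, and *Col9a3* was at 374 and 158 against 111 and 248. *Col7a1*, the anchoring fibril collagen, was at 340 and 578 against 641 and 570. *Col9a1* was at 185 and 157 against 1.09 and 60.0 (log2 difference -3.92 ± 1.64 SE, unadjusted p = 0.054), and *Col11a1* was at 190 and 254 against 4.35 and 165. *Col23a1* was at 235 and 3.99 against 169 and 7.12, and *Col27a1* at 68.3 and 29.9 against 186 and 93.6. A value under 10 in at least 1 sample occurred in 6 of these 16 genes, against 8.26% of all genes tested and 1 of the 9 members, *Col28a1*.

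Genes that fold and modify procollagen showed no call. Of 21 genes on the list 17 were in the table, and 0 had an unadjusted p under 0.05 in limma, beside 5.22% of all genes, with 6 differences positive, 11 negative and a median of -0.16. *Plod1*, a lysyl hydroxylase, was at 18251 and 14053 normalized counts in wild-type against 10908 and 14266 in *Foxq1* cKO cells. *P4hb*, a subunit of prolyl 4-hydroxylase, was at 9130 and 9005 against 9912 and 8594, and *Serpinh1*, the collagen chaperone, at 6459 and 8219 against 6571 and 8945.

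Of the processing and crosslinking genes, 6 of 14 were in the table and 1 had an unadjusted p under 0.05, beside 5.22% of all genes. *Pxdn*, peroxidasin, the enzyme that forms the sulfilimine crosslinks of type IV collagen, was at 3921 and 5001 normalized counts in wild-type against 6892 and 5773 in *Foxq1* cKO cells, a log2 difference of 0.51 ± 0.19 (SE, unadjusted p = 0.038 in limma). That call was lost without wild-type 1 (log2 difference 0.33, unadjusted p = 0.162), *Foxq1* cKO 1 (unadjusted p = 0.205) or *Foxq1* cKO 2 (unadjusted p = 0.059), and with eBayes without a trend (unadjusted p = 0.182). *Loxl3*, a lysyl oxidase, was at 2096 and 1198 against 1522 and 2096, and *Bmp1*, a protease that trims fibrillar procollagens, at 1135 and 1263 against 1205 and 665.

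Collagen receptors held 0 calls in limma among the 8 of 10 genes in the table, beside 5.22% of all genes. *Itgb1*, the β chain of the collagen-binding integrins, was at 9361 and 9180 normalized counts in wild-type against 8923 and 9596 in *Foxq1* cKO cells, a log2 difference of -0.003 ± 0.13 (SE). *Itga1*, an α chain that pairs with it, was at 8151 and 6806 against 8913 and 7135. *Ddr2*, a receptor tyrosine kinase for fibrillar collagen, was at 2048 and 732 against 791 and 614, where wild-type 1 stood above the other 3 samples.

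The non-collagen partners of the basement membrane include laminins, nidogens and fibronectin. All 11 genes were in the table, and 5 had an unadjusted p under 0.05 in limma, 4 lower and 1 higher, where 5.22% of all genes were called. The list was chosen with earlier results of these data known, so nothing is read from this count. *Fn1*, fibronectin, was at 32362 and 29788 normalized counts in wild-type against 15488 and 21793 in *Foxq1* cKO cells (log2 difference -0.76 ± 0.18 SE, unadjusted p = 0.0050). *Nid2*, a nidogen that links laminin to type IV collagen, was at 16765 and 14076 against 9677 and 10119 (-0.63 ± 0.14 SE on the log2 scale, unadjusted p = 0.0037). These 2 calls held without each sample in turn.

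*Lama4*, the laminin α4 chain of endothelial basement membranes, was at 25693 and 27035 normalized counts in wild-type against 17293 and 20542 in *Foxq1* cKO cells (log2 difference -0.48 ± 0.13 SE, unadjusted p = 0.0084 in limma). *Lama5*, the laminin α5 chain, was at 458 and 842 against 1430 and 1495, a log2 difference of 1.24 ± 0.38 (SE, unadjusted p = 0.017). The 2 endothelial laminin α chains thus differed in opposite directions. *Sparc*, a collagen-binding matricellular protein, was at 58575 and 50761 against 44568 and 45154, a log2 difference of -0.28 ± 0.10 (SE, unadjusted p = 0.036 in limma). The call for *Lama4* was lost without *Foxq1* cKO 1 (unadjusted p = 0.052), that for *Lama5* without *Foxq1* cKO 1 (unadjusted p = 0.075) or *Foxq1* cKO 2 (unadjusted p = 0.088), and that for *Sparc* without wild-type 1 (unadjusted p = 0.193), *Foxq1* cKO 1 (unadjusted p = 0.112) or *Foxq1* cKO 2 (unadjusted p = 0.095). Without a trend in eBayes, *Lama5* was the only one of the 5 partners still called, and *Sparc* was also not called with quantile normalization or in DESeq2. Without wild-type 1 the difference of *Lama5* was 0.80 and that of *Sparc* -0.18.

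Of the turnover genes, 12 of 13 were in the table and 1 was called, beside 5.22% of all genes. *Fap*, a serine protease of activated fibroblasts that cuts collagen fragments, was at 126 and 53.8 normalized counts in wild-type against 315 and 291 in *Foxq1* cKO cells, a log2 difference of 1.86 ± 0.71 (SE, unadjusted p = 0.039 in limma). The call was lost without wild-type 2 (unadjusted p = 0.095), *Foxq1* cKO 1 (unadjusted p = 0.152) or *Foxq1* cKO 2 (unadjusted p = 0.130), with the replicate number as a block (unadjusted p = 0.050) and in edgeR (unadjusted p = 0.050). *Mmp9*, a gelatinase that cuts type IV collagen, was at 8145 and 10063 against 7707 and 6792. The lysosomal proteases *Ctsb* and *Ctsl* were at 12196 and 12288 against 9334 and 10923, and at 7435 and 5818 against 5177 and 5782. None of these 3 passed the threshold.

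**Figure D5:**
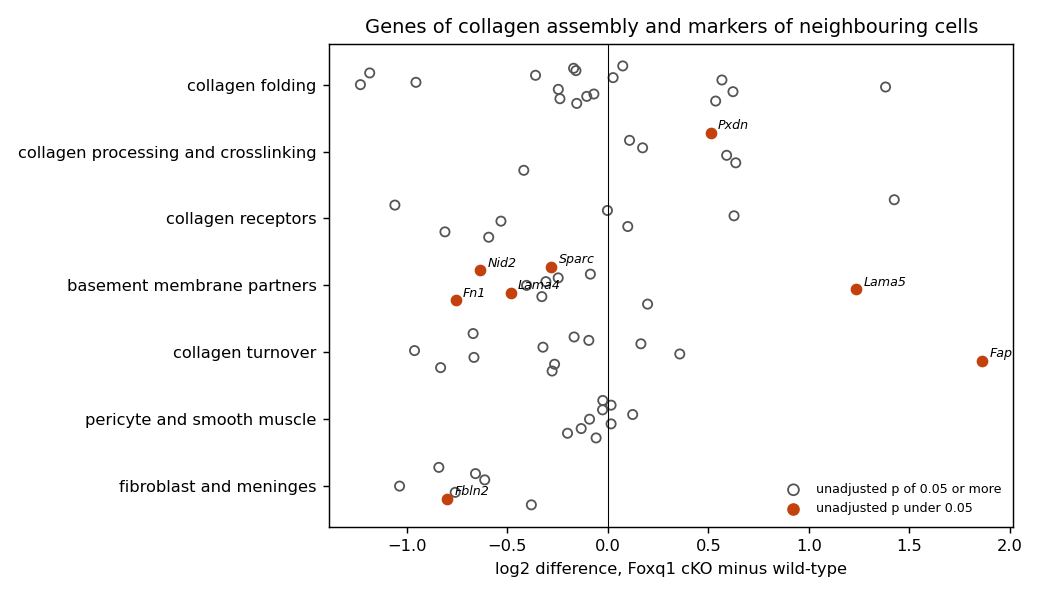
Log2 differences (*Foxq1* cKO minus wild-type) of single genes in 5 lists of collagen-related genes and 2 lists of cell type markers, with filled orange points for an unadjusted p under 0.05 in limma. *Nid2*, *Fn1*, *Lama4* and *Sparc* lie below 0 and *Lama5* at 1.24, the 9 pericyte and smooth muscle genes lie close to 0, and all 7 fibroblast and meningeal genes lie below 0.

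For markers of the cells that commonly make fibrillar collagen, the summed counts were lower in both *Foxq1* cKO samples. In these bulk samples, fewer cells of a type and less RNA per cell cannot be told apart. Of 15 fibroblast and meningeal markers 7 were listed, and their summed normalized counts were 4989 and 5697 in wild-type against 3455 and 3078 in *Foxq1* cKO samples. All 7 differences were negative, with a median of -0.76, and in 6 both *Foxq1* cKO samples were below both wild-type samples, as in 18% of all genes. Only *Fbln2* had an unadjusted p under 0.05, at 1486 and 1564 against 914 and 838 (log2 difference -0.80 ± 0.26 SE, unadjusted p = 0.021 in limma), a call lost without wild-type 2 (unadjusted p = 0.064), *Foxq1* cKO 1 (unadjusted p = 0.066) or *Foxq1* cKO 2 (unadjusted p = 0.099). *Lama1* was at 808 and 1720 against 519 and 635 (unadjusted p = 0.056), and *Fbln1* at 1571 and 1533 against 1336 and 1063. The defining markers *Lum* and *Dcn* were not among the listed genes. Beside these sums, the differences of the 4 fibrillar members were -0.75 for *Col1a1*, 0.04 for *Col1a2*, -0.42 for *Col3a1* and -1.61 for *Col5a1*, and the groups overlapped for all but *Col5a1*. The part of these cells in the fibrillar values was not tested.

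The 9 listed mural markers all overlapped between the groups, with a median of -0.03 and 0 calls: *Rgs5* was at 91163 and 89164 normalized counts in wild-type against 93044 and 89248 in *Foxq1* cKO cells, *Kcnj8* at 16641 and 18074 against 17612 and 15039, and *Vtn* at 15968 and 17466 against 18018 and 14934. The smooth muscle markers *Acta2*, *Tagln*, *Myh11* and *Cnn1* were not among the listed genes, so these mural values do not cover them. Of the 12 endothelial markers 11 had negative differences and 8 had both *Foxq1* cKO samples below both wild-type samples, as in 18% of all genes. Of the 12, *Flt1* and *Mfsd2a* were called lower, where 5.22% of all genes were called. The sums of the microglial list were 7209 and 8530 against 5468 and 6119, of the neural list 18116 and 18724 against 15569 and 16858, and of the erythroid list 20673 and 15683 against 15841 and 20480, with 1 (*Csf1r*), 0 and 0 genes called. *Plvap*, a gene of fenestrated vessels, was at 515 and 324 against 183 and 207. The endothelial, fibroblast, microglial and neural sums were lower in both *Foxq1* cKO samples, and the mural and erythroid sums overlapped between the groups. The part of cell makeup in the values of the collagens and of their basement membrane partners was not tested.

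Promoter sequences are shown for *Col15a1*, *Col18a1* and *Col28a1*, and for *Col3a1*, which held the motif GTTTC most often. The RefSeq table for GRCm38.p6 had windows of 250 bases before and 50 after a start site for 8 of the 9 members. Each window was searched on both strands for GTTTC, which the study gives for FOXQ1, and for TGTTTAC, the textbook forkhead core. The search also covered the CCAAT box, GGGCGG (the GC box) and TATAAA (the TATA box). No match overlapped another within the same member window. The 250 bases before the start site are shown 5′ to 3′ on the strand of the gene, with GTTTC or its reverse complement in capitals. The stretches lie at chr4:47207762-47208011 (plus strand) for *Col15a1*, chr10:77166531-77166780 (minus strand) for *Col18a1*, chr6:8192618-8192867 (minus strand) for *Col28a1* and chr1:45311288-45311537 (plus strand) for *Col3a1*. They hold no annotated exon, except 18 bases of a *Col18a1* exon.
*Col15a1*: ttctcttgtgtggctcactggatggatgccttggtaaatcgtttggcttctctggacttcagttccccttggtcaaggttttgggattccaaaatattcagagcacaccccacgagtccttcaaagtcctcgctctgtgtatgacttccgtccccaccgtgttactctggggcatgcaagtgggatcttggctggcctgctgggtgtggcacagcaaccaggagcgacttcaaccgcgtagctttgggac
*Col18a1*: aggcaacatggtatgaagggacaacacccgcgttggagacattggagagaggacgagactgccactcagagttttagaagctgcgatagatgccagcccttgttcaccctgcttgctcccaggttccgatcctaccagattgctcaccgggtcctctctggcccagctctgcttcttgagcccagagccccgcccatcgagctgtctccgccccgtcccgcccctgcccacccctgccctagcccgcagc
*Col28a1*: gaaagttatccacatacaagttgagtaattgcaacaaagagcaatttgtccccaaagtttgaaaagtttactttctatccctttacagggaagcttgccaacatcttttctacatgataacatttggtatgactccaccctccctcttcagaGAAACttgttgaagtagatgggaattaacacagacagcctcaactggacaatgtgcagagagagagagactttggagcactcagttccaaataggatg
*Col3a1*: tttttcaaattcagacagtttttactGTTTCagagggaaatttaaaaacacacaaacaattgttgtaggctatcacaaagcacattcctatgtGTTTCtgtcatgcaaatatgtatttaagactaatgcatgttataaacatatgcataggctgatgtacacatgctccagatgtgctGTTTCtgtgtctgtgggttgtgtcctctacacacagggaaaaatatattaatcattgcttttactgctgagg
The *Col15a1* window held none of the 5 motifs. *Col18a1* has 2 start sites in the table, and the window of the upstream one held 1 CCAAT and 3 GGGCGG matches, all on the reverse strand, while that of the other held none. The *Col28a1* window held GTTTC once, on the reverse strand, with its first base at -98 from the start site, and the *Col3a1* window held it 3 times, at -224, -157 and -72. *Col1a2* held it once, on the reverse strand 39 bases into the transcript, beside 2 CCAAT and 2 GGGCGG matches. The *Col3a1* window also held 1 TATAAA match, at -117. Among the other windows, *Col4a1* held 1 CCAAT and 1 GGGCGG match, *Col4a2* held 1 CCAAT and 3 GGGCGG, and *Col5a1* held 2 GGGCGG. The windows of *Col4a1* and *Col4a2* overlap. The GGGCGG match of *Col4a1* and the *Col4a2* match that starts at base 8 of its transcript are the same bases, read on opposite strands. The windows of *Col4a1*, *Col4a2* and *Col5a1* held no GTTTC. Of all 32851 windows, 45% held GTTTC, and TGTTTAC, which no member window held, was in 3.65%. CCAAT was in 37.4%, GGGCGG in 35.7% and TATAAA in 13.6%. A match or its absence is a description of these letters only.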

How the data were processed

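RNA-seq of 2 wild-type and 2 *Foxq1* cKO samples was analysed. The authors deposited 1 table of normalized signal: reads divided by a size factor per sample. The submitters' processing notes name Bowtie2 2.2.3, TopHat2 2.0.12, HTSeq 0.6.0 and mm9. Coordinates given here are of GRCm38, and mm9 was not used. The labels give 2 µg of total RNA per library, whereas the study's text names Smart-seq2.

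Each gene stood on many identical lines, and 1207361 lines were reduced to 12693 symbols. Each listed gene had 1 read or more per sample and 21 or more in total, so a gene without reads in even 1 sample could not be seen. All values (100%, tolerance 0.001) were whole multiples of 1 step per sample, so reads were recovered: 21466436 and 17901203 in wild-type against 15827166 and 16963866 in *Foxq1* cKO samples, with size factors of 1.19, 1.00, 0.919 and 0.983.

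The deposited signal was tested with limma 3.58.1 (lmFit, eBayes with a trend, R 4.3.3) on log2(value + 1) for the 12472 genes whose mean was at least 10, with Benjamini-Hochberg adjustment. edgeR 4.0.16 and DESeq2 1.42.0 on recovered reads, other pseudocounts and filters, quantile and TMM scaling, eBayes without a trend, a replicate block and each sample left out were alternatives. Scripts were tested on simulated counts. With 2 samples per group, no exact permutation p can go below 0.333.

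The members and gene lists were chosen with earlier results of these data known. Named were *Foxq1*, the members, every gene of the collagen-related lists with an unadjusted p under 0.05, the other collagens that were most abundant per kilobase or had a mean above that of *Col28a1*, and the 3 genes with the highest mean of each other collagen-related list and of the fibroblast and mural markers. *Plvap*, *Lum*, *Dcn*, *Acta2*, *Tagln*, *Myh11*, *Cnn1*, *Flt1*, *Mfsd2a* and *Csf1r* were named after their values or their absence were seen. Of 12701 identifiers, 12685 were in the GENCODE M21 annotation, and levels per kilobase use the union of its exons. Python 3.11.15, pandas 2.3.3, numpy 2.4.6 and matplotlib 3.10.9 were used.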

Additional observations from a re-analysis of the deposited data

How the results depend on the processing

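Over the alternatives that keep all samples, the count of genes with an unadjusted p under 0.05 ranged from 592 to 804 against 651, and eBayes without a trend called 337 higher and 338 lower where the split was 271 and 380. DESeq2 alone gave adjusted calls (59). The count of other collagens called (2) was 1 with a minimum mean of 50 and in DESeq2, and 0 in edgeR and with eBayes without a trend. The last setting also took the calls among receptors, basement membrane partners and turnover genes from 6 to 2 and those among fibroblast, microglial and other non-endothelial markers from 2 to 1. The direction of *Col23a1* turned with a pseudocount of 5 (-0.018), quantile normalization (-0.27), DESeq2 (-0.44) and edgeR (-0.45). *Itgb1* turned with quantile normalization (0.12), TMM scaling (0.00041) and edgeR (0.0014), and *Rgs5* (-0.066) and *Vtn* (0.036) with quantile normalization. The causes were not tested. *Col28a1* moved by more than its replicate spread in 5 of these settings (-5.66 to -4.45) and *Col4a2* in 1 (0.30, quantile normalization). No member changed sign in the settings that keep all samples.

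The replicate numbers are shared between the groups only as numbers: the deviations of same-numbered samples correlated at 0.03, and a replicate block called 693 genes.

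Leaving out each sample in turn leaves 1 sample in a group, which is assumed to vary like the other group, and gave 276 (without *Foxq1* cKO 1) to 1569 (without wild-type 2) genes with an unadjusted p under 0.05. The median of the members ran from -0.38 to 0.10, the calls among other collagens from 0 to 3, among folding, processing and crosslinking genes from 0 to 4, among receptors, partners and turnover genes from 4 to 8, and among markers from 0 to 3. Directions turned within these ranges of the log2 difference: *Col5a2* -0.22 to 0.26, *Col26a1* -0.76 to 0.35, *Col9a3* -1.17 to 0.076, *Col6a2* -0.73 to 0.071, *Col23a1* -2.67 to 2.90, *Col4a3* -2.36 to 0.11, *Col4a5* -0.38 to 0.87, *Col6a3* -0.26 to 4.01, *P4hb* -0.077 to 0.13, *Serpinh1* -0.15 to 0.30, *Loxl3* -0.23 to 0.58, *Bmp1* -0.85 to 0.0093, *Itgb1* -0.055 to 0.050, *Itga1* -0.062 to 0.26, *Rgs5* -0.015 to 0.045, *Kcnj8* -0.21 to 0.022, *Vtn* -0.16 to 0.11. Of the members, *Col1a1* (-1.93 to 0.43) and *Col1a2* (-0.38 to 0.47) turned too. Few reads limit the values of *Col15a1* in wild-type (47 and 12 reads) and of *Col28a1* in *Foxq1* cKO samples (4 and 3).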
